A study of Mus musculus with 9 samples.

Results

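Ethanol added to lipopolysaccharide was compared with lipopolysaccharide alone in mouse peritoneal macrophages, phagocytes of the abdominal cavity. Cells were precultured for 1 h. The LPS group then received lipopolysaccharide (LPS) at 1 µg/mL for 4 h, and the LPS+EtOH group received the same LPS with 5% ethanol for 4 h. Both groups therefore carried the LPS stimulus, and cells given neither agent or ethanol alone were not analysed here. A further group of 3 libraries, given the same LPS plus 100 µM CPZ, a code not spelled out in the labels, enters no comparison but shares in the estimate of the spread behind every p-value. There were 3 libraries per group, each made from RNA of 3 samples pooled in equal amounts. The labels give no mouse strain, age or sex. They also leave unsaid whether the pooled samples came from separate animals, and p-values thus measure only how far the pools of a group scatter. All genes with at least 1 FPKM (fragments normalised for transcript length and for the mapped fragments of the library) in at least 3 of the 6 libraries were kept, which gave 11192 of the 55335 genes in the table. Of these, 2711 passed only through the LPS group, with no LPS+EtOH library at that level, and 364 only through the LPS+EtOH group.

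LPS, a component of the Gram-negative bacterial cell wall, is sensed by TLR4 and drives NF-kB and interferon signalling. A macrophage that has sensed it raises cytokine, metabolic and antigen presentation genes within hours, and it feeds engulfed material into acidified endosomes and lysosomes. Ethanol is a small solvent-like alcohol that perturbs membranes and proteins and adds an oxidative load as it is metabolised.

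The libraries separated by treatment. Across genes, which are not independent replicates, log2 values correlated at 0.974 to 0.989 within a group and at 0.728 to 0.780 between groups. Total FPKM per library ranged from 302126 to 363356, and the files give no read counts, so the depth behind each value is unknown. Genes at 1 FPKM or more numbered 11096, 11186 and 11266 in the LPS libraries and 8366, 8024 and 8055 in the LPS+EtOH libraries. The RNA of the LPS+EtOH libraries was concentrated in fewer genes. With the 4 adult globin genes left out, the 10 most abundant genes held 11.7, 9.72 and 10.1% of FPKM in LPS and 28, 29.8 and 29.9% in LPS+EtOH. The neutrophil genes S100a8 and S100a9 together rose from 1.19 to 1.47% of FPKM to 11.8 to 12.5%, and the ferritin genes Ftl1 and Fth1 from 0.79 to 1.14% to 4.15 to 4.3%. Globin transcripts took 16.7, 11.5 and 29.4% of FPKM in LPS but 0.221, 0.192 and 0.172% in LPS+EtOH.

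FPKM is relative to each library's total, so these shifts move every other gene. Each direction was therefore read on 3 scales: the values as deposited, the values rescaled after the globin genes were left out, and values divided by median-ratio factors, which centre the typical gene. Those factors were 1.37, 1.5 and 1.49 in the LPS libraries and 0.654, 0.583 and 0.646 in LPS+EtOH. Differences are given on log2(FPKM + 1), which compresses the differences of genes at low FPKM, and calls are at an adjusted p below 0.05 in limma. As deposited, 2135 genes were higher in LPS+EtOH (19.1% of those tested) and 7355 were lower (65.7%), with a median difference of -0.87. With globin genes left out, 1549 (13.8%) were higher and 8187 (73.2%) lower, with a median of -1.19. With median-ratio scaling, 4514 (40.3%) were higher and 4562 (40.8%) lower, with a median of -0.02. Quantile scaling, a further check, gave 3788 (33.8%) higher and 4936 (44.1%) lower. On the 3 scales, 1549 genes were higher and 4558 lower, whereas 846 genes were lower as deposited and higher after median-ratio scaling. Libraries of the groups did not overlap for 85.7% of the genes tested, 19.4% being higher and 66.3% lower in LPS+EtOH. A gene list is therefore read against these shares, which are high.

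Markers of other cell types moved with the treatment, and their part in the results below was not tested. In bulk RNA, fewer cells of a type and less RNA per cell cannot be told apart. The summed level of 20 neutrophil markers was 5145 to 6852 FPKM in LPS and 49042 to 53953 FPKM in LPS+EtOH, and 18 of the 20 were higher as deposited. The summed level of 15 B cell markers was 2352 to 3395 FPKM against 233 to 319.6 FPKM, and all 15 were lower. Of the B cell markers, 2 passed the filter only through LPS. Sums for 18 T and NK cell markers were 209.8 to 274.4 FPKM against 7.129 to 9.287 FPKM, with Klrb1c and Ncr1 below 1 FPKM in every library, and the 12 dendritic cell markers summed to 173.9 to 239.6 FPKM against 32.53 to 34.41 FPKM. The labelled cell type was checked with 16 pan-macrophage markers, whose sum was 2072 to 2708 FPKM in LPS and 4752 to 4866 FPKM in LPS+EtOH. These 16 markers have 17 entries, so a symbol is listed more than once. Among the 16 entries tested, 7 were higher and 7 lower as deposited. The entry not tested, of Mertk, was below 1 FPKM in every library. The general macrophage gene Adgre1, which encodes F4/80, stood at 150, 134 and 139 FPKM in LPS and at 85.2, 81.9 and 99.8 FPKM in LPS+EtOH. Its difference was -0.66 as deposited and 0.54 after median-ratio scaling, so its direction depends on the scale. Of the 17 markers of large peritoneal macrophages, Gata6, the transcription factor that defines them, and Garnl3 were below 1 FPKM in all 6 libraries. The summed level of those 17 was 1510 to 2375 FPKM in LPS and 1130 to 1154 FPKM in LPS+EtOH. That sum includes Cd9, which rose from a mean of 254 to 643 FPKM. Of the 15 tested, 11 were lower and 4 higher, both as deposited and after median-ratio scaling (median -2.10 and -1.62). Of these 15, 6 passed the filter only through LPS.

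Promoters are shown for 5 genes, from the aminoacyl-tRNA synthetases, all lower, and from the V-ATPase and lysosomal lists. The first 3 belong to the synthetases, which charge transfer RNAs with amino acids. They are the 3 of the 15 synthetase windows searched that hold the letters TGATGNAA or their reverse complement, a motif known from genes that the transcription factor ATF4 activates when amino acids are short. The windows are the 250 bases before the annotated start, from RefSeq on GRCm38.p6, written 5′ to 3′ on the gene's strand with the match in capitals. The Tars window is chr15:11399659-11399908 on the minus strand, the Gars window is chr6:55037751-55038000 on the plus strand and the Aars window is chr8:111033592-111033841 on the plus strand.
Tars: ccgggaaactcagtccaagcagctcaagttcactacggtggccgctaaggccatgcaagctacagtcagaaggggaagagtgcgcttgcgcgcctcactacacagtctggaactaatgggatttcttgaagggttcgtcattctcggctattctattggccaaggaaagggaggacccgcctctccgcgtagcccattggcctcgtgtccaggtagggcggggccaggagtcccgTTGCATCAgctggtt
Gars: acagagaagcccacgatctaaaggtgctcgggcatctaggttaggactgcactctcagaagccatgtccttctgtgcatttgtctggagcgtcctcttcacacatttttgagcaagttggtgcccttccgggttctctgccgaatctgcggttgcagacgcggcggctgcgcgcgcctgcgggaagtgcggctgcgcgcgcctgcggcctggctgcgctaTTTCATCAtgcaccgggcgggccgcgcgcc
Aars: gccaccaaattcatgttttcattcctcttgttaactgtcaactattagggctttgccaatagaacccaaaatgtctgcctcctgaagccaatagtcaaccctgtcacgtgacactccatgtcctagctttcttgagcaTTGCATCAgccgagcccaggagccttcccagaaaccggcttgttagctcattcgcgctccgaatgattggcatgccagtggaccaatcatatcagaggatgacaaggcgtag
The match begins 15 bases before the start in Tars, 30 in Gars and 112 in Aars. The motif was in 20% of the synthetase windows and in 2.04% of all 9536 windows of tested genes. It was searched for after the synthetase values had been seen.

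The next pair belongs to the acidification and digestion machinery of the lysosome. Atp6v0b encodes a membrane subunit of the V-ATPase, the proton pump of endosomes and lysosomes, and Ctsd encodes the lysosomal aspartic protease cathepsin D. Capitals mark GTCACGTG on either strand, the E-box core of the element bound by TFEB, a transcription factor for lysosomal genes. Every such match also holds the general E-box CACGTG. The Atp6v0b window is chr4:117887330-117887579 on the minus strand, and the Ctsd window is chr7:142387828-142388077 on the minus strand.
Atp6v0b: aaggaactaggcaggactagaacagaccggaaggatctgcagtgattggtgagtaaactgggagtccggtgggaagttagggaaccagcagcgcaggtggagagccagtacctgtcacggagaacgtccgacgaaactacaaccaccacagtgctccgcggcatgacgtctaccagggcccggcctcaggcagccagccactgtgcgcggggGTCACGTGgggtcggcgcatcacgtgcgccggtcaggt
Ctsd: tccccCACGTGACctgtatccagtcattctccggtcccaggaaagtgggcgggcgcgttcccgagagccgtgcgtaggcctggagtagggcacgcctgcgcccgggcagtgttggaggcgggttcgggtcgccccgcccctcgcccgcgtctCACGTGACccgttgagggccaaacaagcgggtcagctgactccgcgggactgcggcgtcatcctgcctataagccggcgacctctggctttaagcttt
The match begins 38 bases before the start in Atp6v0b, and 245 and 98 bases before it in Ctsd. It was in 7 of 28 windows of the lysosomal list (25%), in 1 of 13 windows of the V-ATPase list (7.69%) and in 3.59% of all windows. The same letters were in 1 of 15 synthetase windows (6.67%), that of Aars above, where they are not in capitals. The genes of the 7 lysosomal windows did not move one way. Ctsd, Lamp1, Mcoln1 and Gla were higher as deposited, whereas Ctsa, Glb1 and Lgmn were lower. Glb1, a lysosomal beta-galactosidase, stood at 7.11, 7.61 and 7.86 FPKM in LPS and at 0.713, 0.889 and 0.622 FPKM in LPS+EtOH.

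Genes with the largest rises encode a mixed set of membrane, acute-phase and stress proteins. Cldn1, a tight junction protein, stood at 2.82, 3.31 and 2.3 FPKM in LPS (replicates 1 to 3 in order, as throughout) and at 94.9, 101 and 81 FPKM in LPS+EtOH. All LPS+EtOH libraries lay far above all LPS libraries, with a log2 difference of 4.62 ± 0.13 (SE) and an adjusted p of 1.2e-08 in limma. Rhov, a small GTPase, stood at 4.91, 5.81 and 1.5 FPKM against 131, 142 and 94.3 FPKM (4.71 ± 0.32, adjusted p = 2.22e-07 in limma). Orm1, an acute-phase plasma protein, stood at 1.53, 1.03 and 1.72 FPKM against 38.8, 31.4 and 48.7 FPKM (4.06 ± 0.20). Hamp, which encodes the iron hormone hepcidin, was near or at 0 in LPS, at 0.125, 0 and 0.115 FPKM, and reached 19.6, 20 and 9.44 FPKM in LPS+EtOH. It passed the level filter only through the LPS+EtOH group. Gadd45g, a stress sensor that binds the p38 kinase cascade, stood at 12.8, 16.6 and 9.76 FPKM against 193, 220 and 209 FPKM (3.92 ± 0.18). Gde1, a membrane glycerophosphodiesterase, stood at 14.2, 19.6 and 14.8 FPKM against 201, 239 and 196 FPKM, and Rps6ka2, a ribosomal S6 kinase, at 4.13, 4.06 and 2.19 FPKM against 79.3, 72.6 and 58.8 FPKM. The rule that chose the largest rises required groups without overlap and a higher call on all 3 scales, so both hold for these 7 genes.

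LPS replicate 3 stood apart in some of the largest rises. Hspa1b, an inducible HSP70, stood at 7.13, 16.1 and 34.9 FPKM in LPS and at 319, 241 and 212 FPKM in LPS+EtOH, and its near-identical neighbour Hspa1a at 6.88, 14 and 32.8 FPKM against 185, 137 and 124 FPKM. How reads were split between those copies is uncertain. The spread among LPS pools was wide, but even the highest LPS pool lay below the lowest LPS+EtOH pool, which the rule of choice required of Hspa1b. Ankrd22 stood at 0.834, 1.06 and 9.89 FPKM in LPS and at 48.7, 42.6 and 37.5 FPKM in LPS+EtOH. Hist2h2aa1, a replication-type H2A histone with an identical copy nearby, was listed at 0 in LPS replicates 1 and 2 and at 7.11 FPKM in replicate 3, against 24.2, 25.1 and 27.4 FPKM in LPS+EtOH (3.72 ± 1.11, adjusted p = 0.00881 in limma). The rest of the 15 largest rises are Tnfsf14, Cstb, the small nucleolar RNA Snord89 and the microRNA entries Mir7034 and Mir6953, the latter pair described with the noncoding genes.

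**Figure D1:**
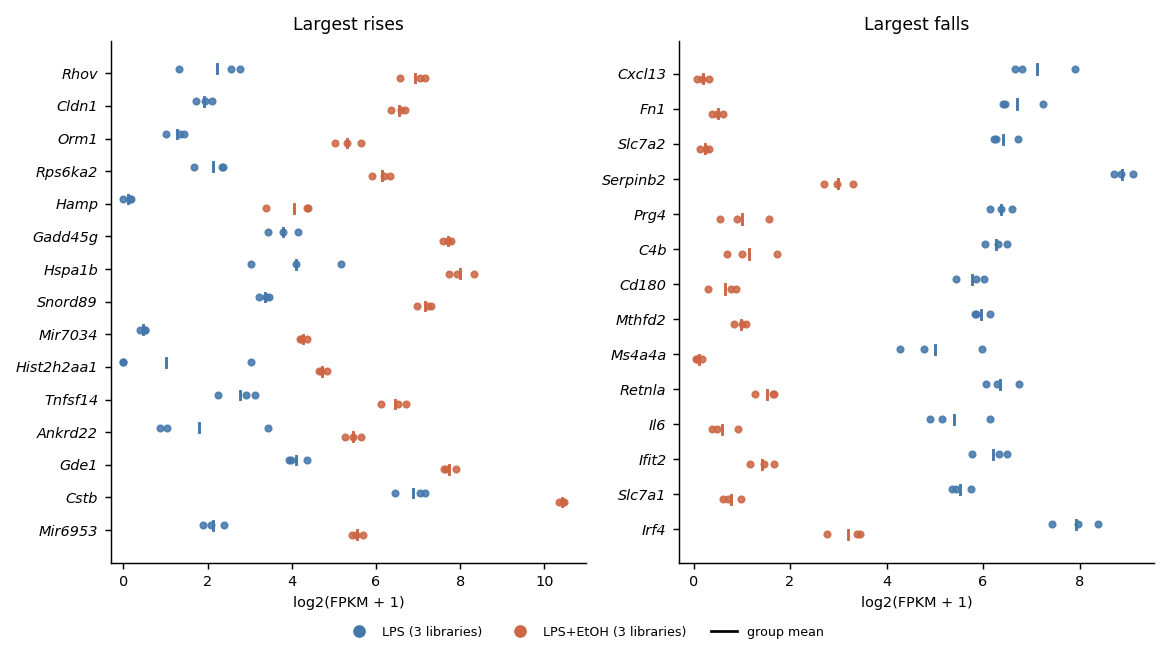
Levels of genes with the largest rises (left) and falls (right) that are named in the text, in each of the 3 LPS and 3 LPS+EtOH libraries, on log2(FPKM + 1) as deposited; points are libraries and short bars are group means. The groups do not overlap for any gene shown, as the rule that chose them required, and LPS replicate 3 stands apart from the other LPS libraries for Ankrd22 and Hist2h2aa1.

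Secreted and matrix proteins led the falls. Cxcl13, a chemokine that attracts B cells, stood at 238, 100 and 110 FPKM in LPS and at 0.0529, 0.243 and 0.128 FPKM in LPS+EtOH, with a log2 difference of -6.93 ± 0.33 (adjusted p = 3.95e-08 in limma). Fn1, the matrix protein fibronectin, stood at 150, 86.2 and 84.2 FPKM against 0.299, 0.537 and 0.409 FPKM (-6.20 ± 0.26). Both genes passed the level filter only through LPS, with no LPS+EtOH library at 1 FPKM. Cxcl13 and Fn1 are on the list of large peritoneal macrophage markers, as are Prg4 and Serpinb2. Serpinb2, an inhibitor of plasminogen activators, stood at 547, 417 and 463 FPKM against 6.83, 8.95 and 5.54 FPKM (-5.89 ± 0.19). Prg4, the lubricant proteoglycan 4, fell from a mean of 82.3 to 1.10 FPKM.

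Both cationic amino acid transporters of the Slc7a1 and Slc7a2 pair, which import arginine and lysine, were among the largest falls. Slc7a2 stood at 105, 73.6 and 76.3 FPKM in LPS and at 0.193, 0.105 and 0.255 FPKM in LPS+EtOH (-6.16 ± 0.20, adjusted p = 1.31e-08 in limma). Slc7a1 stood at 39.7, 52.6 and 42.5 FPKM against 0.984, 0.651 and 0.518 FPKM (-4.74 ± 0.15). Neither transporter reached 1 FPKM in any LPS+EtOH library, so both passed the level filter only through LPS. Arg2, the mitochondrial arginase, moved the other way, from 104, 79.6 and 83.3 FPKM to 593, 642 and 578 FPKM (2.76 ± 0.13), and was named after its values were seen. Mthfd2, a mitochondrial folate enzyme, stood at 56.8, 70 and 56.3 FPKM against 1.11, 0.995 and 0.8 FPKM (-4.97 ± 0.15, adjusted p = 1.2e-08). The interferon-induced gene Ifit2 fell from 74.0 to 1.72 FPKM, the transcription factor Irf4 from 251 to 8.39 FPKM, Cd180, a TLR-like receptor that restrains TLR4, from 54.2 to 0.603 FPKM, Retnla, a secreted marker of alternative activation, from 82.7 to 1.91 FPKM, and complement C4b from 77.2 to 1.32 FPKM. Ms4a4a and Il6 were also among the largest falls.

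Among genes higher on all 3 scales without overlap, and outside the lists of other cell types, the 8 named for the largest gain in absolute FPKM were Ftl1, Hmox1, Fth1, Gadd45b, Acod1, Srgn, Nfkbia and Slpi. Ftl1, the ferritin light chain, stood at 1885, 1791 and 1581 FPKM in LPS and at 9708, 10161 and 10589 FPKM in LPS+EtOH (2.54 ± 0.19, adjusted p = 3.58e-07 in limma). Hmox1, the enzyme that releases iron from haem, stood at 516, 489 and 549 FPKM against 3235, 3986 and 4235 FPKM (2.87 ± 0.18). Fth1, the ferritin heavy chain, rose from a mean of 1507 to 4701 FPKM, and Gadd45b, a relative of Gadd45g, from 581 to 2869 FPKM. Ftl1 and Fth1 have processed pseudogene copies, and how their reads were shared is uncertain. Acod1, which makes itaconate, rose from 1699 to 3934 FPKM, Nfkbia, the NF-kB inhibitor IkB-alpha, from 1260 to 3185 FPKM, Srgn, the granule proteoglycan serglycin, from 801 to 2735 FPKM, and Slpi, a secreted protease inhibitor, from 580 to 2383 FPKM.

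Genes named for the largest loss in absolute FPKM, by the same rule, were of several kinds. Eef1a1, the factor that brings aminoacyl-tRNA to the ribosome, stood at 1686, 2236 and 2055 FPKM in LPS and at 565, 566 and 519 FPKM in LPS+EtOH. Its difference was -1.85 as deposited and -0.64 after median-ratio scaling. The mitochondrial mt-Atp6 stood at 1264, 1545 and 1760 FPKM against 71.5, 177 and 120 FPKM, and Cd74, the class II invariant chain, fell from 1151 to 183 FPKM. Ptgs2, the inducible cyclooxygenase, fell from 822 to 137 FPKM, the acute-phase gene Saa3 from 650 to 88.5 FPKM, and the ribosomal genes Rps3a1 and Rplp0 from 750 to 148 FPKM and from 571 to 130 FPKM. Abundant genes nearer the middle changed sign with the scale. Plek, a cytoskeletal adaptor of phagocytes, differed by -0.36 as deposited and by 0.85 after median-ratio scaling, Ifitm3 by -0.68 and 0.53, Tpt1 by -0.34 and 0.87, and Serinc3 by -0.73 and 0.47, and no direction is given for these 4.

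Genes that charge transfer RNAs with amino acids were lower. All 22 cytosolic synthetase genes tested were lower on all 3 scales, with a median difference of -2.76 as deposited and -1.71 after median-ratio scaling, against -0.87 and -0.02 over all genes tested. All reached the level filter through both groups. Aars, the alanine enzyme, stood at 41.1, 51 and 44.4 FPKM in LPS and at 2.38, 2.35 and 1.83 FPKM in LPS+EtOH (-3.87 ± 0.13, adjusted p = 1.29e-08 in limma). Gars, the glycine enzyme, stood at 68, 78.5 and 70.4 FPKM against 6.21, 6.52 and 6.03 FPKM (-3.33 ± 0.12), and Tars, the threonine enzyme, at 23.9, 31.8 and 27.1 FPKM against 1.93, 1.55 and 1.44 FPKM (-3.43 ± 0.13). In each of these genes, whose promoters hold the TGATGNAA match shown above, the lowest LPS pool was far above the highest LPS+EtOH pool. Iars, the isoleucine enzyme, fell from 52.5 to 1.74 FPKM, and Eprs, which charges glutamate and proline, from 21.3 to 0.975 FPKM.

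Genes of ribosome production and of the Cct chaperonin were also lower without exception. All 33 tested genes of ribosome biogenesis were lower on all 3 scales (median -2.40 as deposited, -1.36 after median-ratio scaling), 3 of them passing the filter only through LPS. Ddx21, a nucleolar RNA helicase, stood at 63.3, 98.5 and 79.3 FPKM in LPS and at 6.6, 7.18 and 5.03 FPKM in LPS+EtOH. Tcof1, a cofactor of ribosomal RNA transcription, fell from 37.2 to 2.06 FPKM, and the nucleolar protein gene Npm1 from 244 to 40.1 FPKM. All 8 subunits of Cct, the ring that folds actin and tubulin, were lower on all 3 scales (median -2.19 and -1.11). Cct2 stood at 75.1, 101 and 92.1 FPKM against 12.7, 10.8 and 10.5 FPKM, and Tcp1 fell from 37.1 to 5.45 FPKM.

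Initiation factors and the ribosome itself were less uniform. Of 36 cytosolic initiation factors, 32 were lower and 1 higher as deposited, and 24 were lower and 7 higher after median-ratio scaling (median -1.85 and -0.75). Eif3c, a subunit of the scaffold that recruits messenger RNA to the small ribosomal subunit, stood at 117, 159 and 137 FPKM in LPS and at 12.3, 9.77 and 10.1 FPKM in LPS+EtOH. Of 85 cytosolic ribosomal protein genes, 82 were lower and 2 higher as deposited, and 47 were lower and 8 higher after median-ratio scaling (median -1.64 and -0.49). Many of these genes have processed pseudogenes, and how reads were shared with them is uncertain. Of 73 mitochondrial ribosomal protein genes, 65 and 46 were lower on those scales, and 30 had passed the filter only through LPS. Mrpl50, a large-subunit member, stood at 8.63, 9.87 and 9.2 FPKM against 1.25, 1.27 and 1.01 FPKM.

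Among metabolic lists, serine, glycine and folate genes, the tricarboxylic acid cycle and nucleotide synthesis were mostly lower. Of 7 pentose phosphate genes, however, 3 were higher and 3 lower as deposited, and 4 and 3 after median-ratio scaling. Of 11 genes of polyamine metabolism, 3 were higher and 6 lower as deposited, and 5 and 5 after median-ratio scaling. Of 17 genes of serine, glycine and folate metabolism, 16 were lower and 1 higher both as deposited and after median-ratio scaling (median -1.92 and -1.25), and 6 passed the filter only through LPS. Phgdh, the entry enzyme of serine synthesis, stood at 55, 70.6 and 68.5 FPKM in LPS and at 4.2, 2.61 and 2.92 FPKM in LPS+EtOH (-3.96 ± 0.19). Psat1, the next enzyme, stood at 24.9, 30.9 and 26.6 FPKM against 0.501, 0.633 and 0.436 FPKM (-4.22 ± 0.15), and the mitochondrial Shmt2 fell from 92.3 to 4.28 FPKM. The exception was the cytosolic relative Shmt1, at 4.63, 6.02 and 4.89 FPKM against 7.68, 10.2 and 8.76 FPKM. It was higher as deposited (0.67 ± 0.14, adjusted p = 0.0011) but its call was lost with globin genes left out.

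All 24 tested enzymes of the tricarboxylic acid cycle and pyruvate entry were lower as deposited, and 16 were lower and 3 higher after median-ratio scaling (median -1.71 and -0.95). Of these, 7 passed the filter only through LPS. Pdha1, the catalytic subunit of pyruvate dehydrogenase, stood at 17.7, 20.8 and 19.5 FPKM in LPS and at 2.24, 2.14 and 2.51 FPKM in LPS+EtOH. Ogdh fell from 28.1 to 4.05 FPKM and Idh3b from 12 to 1.66 FPKM. Of 24 nucleotide synthesis genes, 21 were lower and 2 higher as deposited (17 and 3 after median-ratio scaling), and 6 passed only through LPS. Ctps, the CTP synthase gene, fell from 15.2 to 1.34 FPKM. Dck, a salvage kinase for deoxynucleosides, went against the list, at 28.9, 22.9 and 17.3 FPKM in LPS and 70.1, 53.9 and 82.4 FPKM in LPS+EtOH (1.55 ± 0.20).

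**Figure D2:**
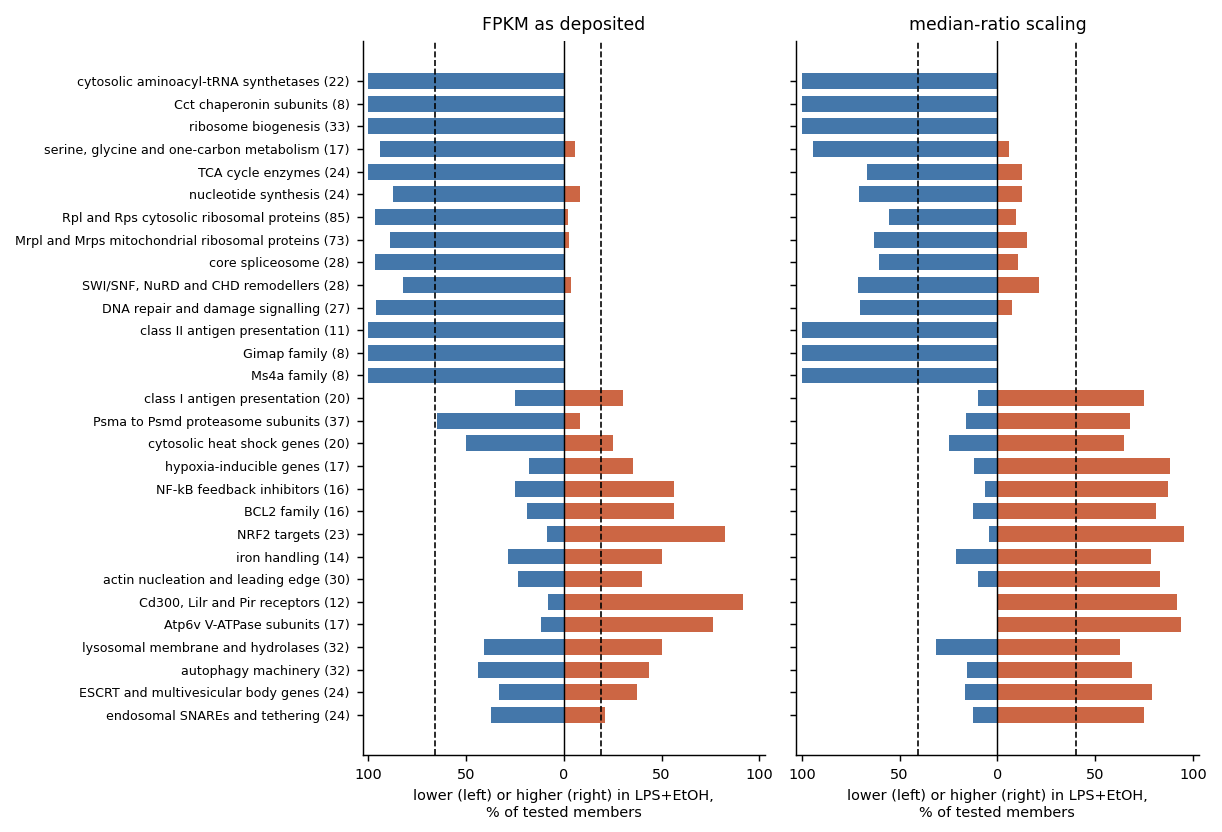
Share of the tested members of 29 lists, with the number tested in parentheses, that were lower (blue, to the left) or higher (red, to the right) in LPS+EtOH at an adjusted p below 0.05 in limma, as deposited and after median-ratio scaling. Dashed lines mark the shares over all genes tested, 65.7% lower and 19.1% higher as deposited and 40.8% and 40.3% after median-ratio scaling; the synthetase, chaperonin and ribosome biogenesis bars fill the lower side in both panels.

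The proton pump of the lysosome moved the other way. Of 17 V-ATPase subunits tested, 13 were higher and 2 lower as deposited, and 16 were higher and none lower after median-ratio scaling (median 1.30 and 2.45). With globin genes left out, 13 were still higher. Atp6v1e1, a stalk subunit, stood at 32.6, 26.5 and 28 FPKM in LPS and at 185, 200 and 185 FPKM in LPS+EtOH (2.67 ± 0.13, adjusted p = 3.95e-08 in limma). Atp6v0b, whose promoter is shown above, stood at 44.4, 38.2 and 37.3 FPKM against 108, 99.8 and 105 FPKM (1.36 ± 0.12), and Atp6v0d1 rose from 39.0 to 143 FPKM. The LPS+EtOH pools were tightly grouped and clear of the LPS pools in each of these. Atp6v0a2, a membrane subunit isoform, stood at 3.84, 5.38 and 4.12 FPKM against 1.62, 1.38 and 1.82 FPKM, lower as deposited (-1.06 ± 0.16) but with no call after median-ratio scaling (-0.18, adjusted p = 0.219).

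The lysosomal list split into enzymes that rose and enzymes that fell steeply. Of 32 members, 16 were higher and 13 lower as deposited, 12 and 14 with globin genes left out, and 20 and 10 after median-ratio scaling (median 0.44, 0.03 and 1.57). Ctsd stood at 273, 309 and 210 FPKM in LPS and at 1602, 1569 and 1720 FPKM in LPS+EtOH (2.64 ± 0.17, adjusted p = 1.38e-07 in limma). The cathepsins Ctsz and Ctsb rose from 235 to 842 FPKM and from 129 to 454 FPKM. Cd68, a lysosomal membrane protein of macrophages, stood at 65.9, 57.7 and 43 FPKM against 364, 397 and 328 FPKM. Against these, Ctss, the cathepsin that trims the class II invariant chain, stood at 211, 240 and 194 FPKM against 30.9, 43.7 and 28.2 FPKM, lower on all 3 scales. Man2b1, an alpha-mannosidase, stood at 18, 18.1 and 18.2 FPKM against 1.95, 2.1 and 2.32 FPKM (-2.62 ± 0.11). Lgmn, an asparaginyl protease, fell from 29.2 to 3.24 FPKM, and Grn, the progranulin gene, from 37.4 to 8.32 FPKM.

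Genes of transport to the lysosome also moved both ways. Of 32 autophagy genes, 14 were higher and 14 lower as deposited, 10 and 16 with globin genes left out, and 22 and 5 after median-ratio scaling (median 0.06, -0.33 and 1.19). Gabarap, a ubiquitin-like protein of the autophagosome membrane, stood at 130, 115 and 110 FPKM in LPS and at 505, 521 and 514 FPKM in LPS+EtOH (2.11 ± 0.13). Its relative Map1lc3b rose from 12.5 to 38.6 FPKM, and Optn, a cargo receptor, from 28.0 to 99.6 FPKM. Tfeb, the lysosomal transcription factor, stood at 4.28, 5.59 and 4.31 FPKM against 19, 16.8 and 18.8 FPKM (1.75 ± 0.12, adjusted p = 2.19e-07 in limma). Pik3c3, the lipid kinase that starts autophagosome formation, stood at 6.25, 7.01 and 7.7 FPKM against 1.58, 1.06 and 1.42 FPKM and was lower on all 3 scales.

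Of 24 ESCRT genes, which sort membrane proteins into multivesicular bodies, 9 were higher and 8 lower as deposited, 5 and 13 with globin genes left out, and 19 and 4 after median-ratio scaling. Chmp2b, an ESCRT-III subunit, stood at 18.9, 8.7 and 17.2 FPKM in LPS and at 52.1, 53.1 and 56.1 FPKM in LPS+EtOH, whereas Vps36, an ESCRT-II subunit, stood at 6.31, 6.67 and 7.22 FPKM against 0.971, 0.747 and 1.12 FPKM. Of 24 endosomal SNARE and tethering genes, 5 were higher and 9 lower as deposited, 4 and 12 with globin genes left out, and 18 and 3 after median-ratio scaling. The balance of these transport lists thus depends on the scale. Stx11, a syntaxin of haematopoietic cells, rose from 92.2 to 255 FPKM and Vamp2 from 23.8 to 53.8 FPKM, while Snap29, which joins autophagosomes to lysosomes, fell from 24.4 to 8.05 FPKM.

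Inhibitors of cathepsins were among the most raised families. All 6 tested stefins of the Stfa cluster were higher on all 3 scales (median 2.57 as deposited). Stfa2 stood at 0.64, 0.71 and 1.64 FPKM in LPS and at 25.2, 35.3 and 36.1 FPKM in LPS+EtOH, and Stfa2l1 at 109, 73 and 68.6 FPKM against 480, 486 and 461 FPKM. These genes are near-identical copies, so the split between them is uncertain, and Stfa2 and Stfa2l1 are also on the neutrophil list, whose sum rose. Cstb, the related cystatin B of a separate locus, stood at 142, 130 and 86.4 FPKM against 1303, 1416 and 1381 FPKM (3.54 ± 0.19).

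Iron genes moved both ways. Of 14 iron handling genes tested, 7 were higher and 4 lower as deposited, 6 and 5 with globin genes left out, and 11 and 3 after median-ratio scaling (median 0.38, 0.01 and 1.54). Slc40a1, the iron exporter ferroportin, stood at 12.6, 11.5 and 7.25 FPKM in LPS and at 46.3, 41.2 and 51.2 FPKM in LPS+EtOH (2.07 ± 0.18). Slc11a1, the phagosomal metal transporter, rose from 95.1 to 392 FPKM. Tfrc, the transferrin receptor that imports iron, stood at 23.7, 39.1 and 31 FPKM against 4.79, 4.25 and 4.97 FPKM (-2.48 ± 0.16), and Aco1, an iron-sensing RNA-binding protein, fell from 3.74 to 0.391 FPKM.

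Targets of NRF2, the transcription factor of the oxidative stress response, were higher in most cases. Of 23 tested, 19 were higher and 2 lower as deposited, 16 and 2 with globin genes left out, and 22 and 1 after median-ratio scaling (median 1.23, 0.83 and 2.38). Osgin1, an oxidative stress-induced gene, stood at 9.66, 14.1 and 7.05 FPKM in LPS and at 84.2, 119 and 124 FPKM in LPS+EtOH (3.32 ± 0.29, adjusted p = 1.11e-06 in limma). Srxn1, sulfiredoxin, stood at 116, 78.3 and 61.2 FPKM against 200, 283 and 302 FPKM. Ephx1, a microsomal epoxide hydrolase, was the lowest by difference, ahead of catalase (Cat, -0.66 as deposited and 0.48 after median-ratio scaling), at 29.1, 28.8 and 38.6 FPKM against 0.696, 0.603 and 0.365 FPKM (-4.41 ± 0.16).

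Heat shock genes moved both ways. Of 20 cytosolic members, 5 were higher and 10 lower as deposited, 3 and 12 with globin genes left out, and 13 and 5 after median-ratio scaling. The count of higher heat shock members as deposited was 3 without LPS replicate 3, and also 3 without LPS+EtOH replicate 2. Next to the rise of Hspa1a and Hspa1b, the constitutive chaperone Hsp90ab1 stood at 441, 561 and 529 FPKM in LPS and at 147, 139 and 126 FPKM in LPS+EtOH, and Hspa4, a nucleotide exchange factor of HSP70, fell from 35.7 to 8.74 FPKM. Hsf1, the transcription factor of the heat shock response, stood at 3.1, 3.73 and 3.17 FPKM against 0.548, 0.369 and 0.418 FPKM. Of 17 hypoxia-inducible genes, 6 were higher and 3 lower as deposited, 3 and 7 with globin genes left out, and 15 and 2 after median-ratio scaling, so the balance depends on the scale. Ddit4, an inhibitor of mTORC1, stood at 22.8, 18.6 and 19.5 FPKM against 81.5, 79.5 and 76 FPKM (1.91 ± 0.13), and Adm, the peptide hormone adrenomedullin, at 12, 21.7 and 20.3 FPKM against 1.86, 1.33 and 1.11 FPKM.

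Feedback inhibitors of NF-kB were more often higher than lower. Of 16 tested, 9 were higher and 4 lower as deposited, and 14 and 1 after median-ratio scaling (median 0.56 and 1.76). Nfkbib, the inhibitor IkB-beta, stood at 88.8, 90.8 and 73.3 FPKM in LPS and at 161, 204 and 149 FPKM in LPS+EtOH, and Tax1bp1, an adaptor of the enzyme A20, rose from 36.1 to 65.7 FPKM. Tnfaip3, which encodes A20, stood at 283, 148 and 127 FPKM against 489, 405 and 330 FPKM (1.20 ± 0.34, adjusted p = 0.00645 in limma), and its call was lost after quantile scaling. Tnip2, an A20-binding protein, went the other way, from 9.4 to 2.08 FPKM.

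In the BCL2 family, which sets the threshold for mitochondrial cell death, 9 of 16 tested members were higher and 3 lower as deposited (13 and 2 after median-ratio scaling). Among the survival members, Bcl2a1a stood at 191, 138 and 130 FPKM in LPS and at 508, 620 and 464 FPKM in LPS+EtOH, with near-identical copies that make its share uncertain. Mcl1 stood at 357, 331 and 343 FPKM against 627, 562 and 576 FPKM (0.77 ± 0.12). Bcl2l1 stood at 6.48, 15.3 and 10.2 FPKM against 66.9, 26.9 and 23.5 FPKM, with LPS+EtOH replicate 1 far above the others. The death-promoting Bcl2l11 rose as well, from 44.5 to 110 FPKM. Bcl2 itself stood at 3.28, 6.29 and 5.89 FPKM against 0.525, 0.656 and 0.426 FPKM, and Bcl2l2 fell from 3.24 to 0.149 FPKM.

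**Figure D3:**
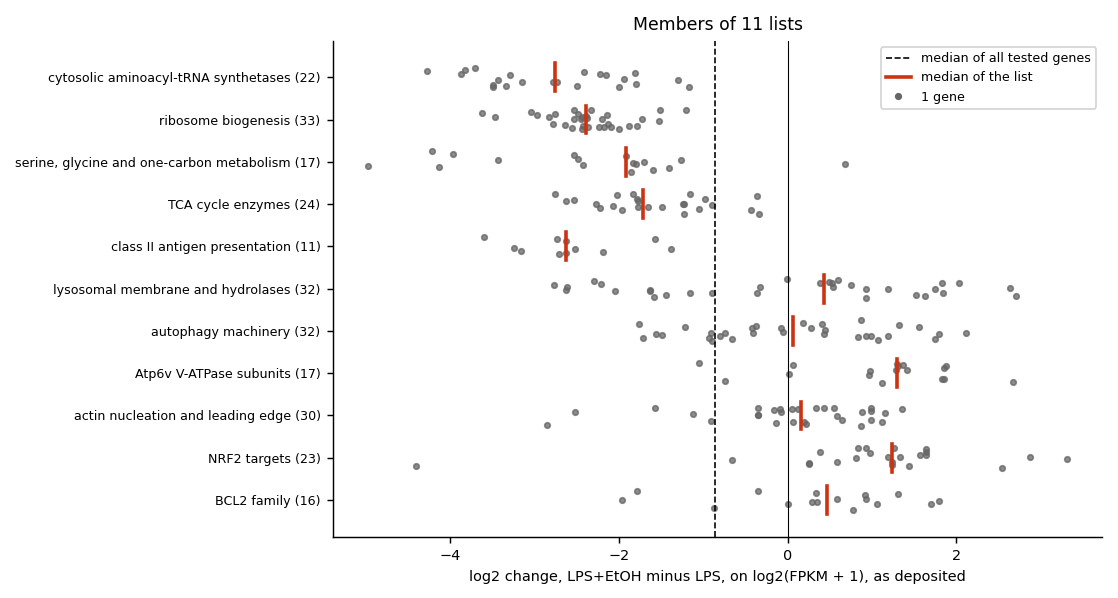
Log2 difference, LPS+EtOH minus LPS, of every tested member of 11 lists on log2(FPKM + 1) as deposited, with 1 point per gene, a red bar at the list median and a dashed line at the median of all tested genes (-0.87). Synthetase and ribosome biogenesis members all lie below 0, lysosomal and autophagy members spread to both sides, and the lowest point among NRF2 targets is Ephx1.

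Inhibitory and paired myeloid receptors rose as a family. Of 12 tested genes of the Cd300, Lilr and Pir families, 11 were higher and 1 lower as deposited, 9 and 1 with globin genes left out, and 11 and none after median-ratio scaling (median 1.44, 1.05 and 2.60). Lilr4b stood at 177, 144 and 118 FPKM in LPS and at 595, 664 and 576 FPKM in LPS+EtOH (2.07 ± 0.16). Cd300lf stood at 37.8, 33.4 and 25.7 FPKM against 145, 142 and 149 FPKM (2.15 ± 0.14, adjusted p = 2.01e-07 in limma), and Pirb rose from 46.7 to 125 FPKM. Members of these families are similar in sequence, which leaves the split between copies uncertain. Neutrophils also carry such receptors, and the neutrophil marker sum rose alongside.

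Actin regulators were divided. Of 30 tested, 12 were higher and 7 lower as deposited, 8 and 13 with globin genes left out, and 25 and 3 after median-ratio scaling, so the balance of the list depends on the scale. Cfl1, the filament-severing cofilin, stood at 148, 161 and 147 FPKM in LPS and at 324, 318 and 353 FPKM in LPS+EtOH (1.12 ± 0.11). Vasp, which elongates filaments, rose from 327 to 727 FPKM, and Tmsb4x, which holds actin monomers, from 483 to 1247 FPKM. Evl, a relative of Vasp, stood at 7.72, 7.61 and 9.19 FPKM against 0.346, 0.195 and 0.263 FPKM (-2.85 ± 0.14), and Fscn1, a bundling protein that also marks dendritic cells, fell from 6.71 to 0.265 FPKM.

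The antigen presentation routes differed in their values. All 11 class II genes tested were lower on all 3 scales (median -2.63 as deposited, -1.52 after median-ratio scaling). Of these, 1 passed the filter only through LPS. H2-Aa, a class II alpha chain, stood at 201, 321 and 247 FPKM in LPS and at 26.4, 19 and 15.3 FPKM in LPS+EtOH (-3.60 ± 0.23). Ciita, the transcriptional switch of these genes, stood at 5.2, 7.94 and 7.95 FPKM against 0.731, 0.176 and 0.285 FPKM. B cells and dendritic cells also carry class II, and their marker sums fell alongside. Of 20 class I genes, 6 were higher and 5 lower as deposited, none was higher and 10 were lower with globin genes left out, and 15 were higher and 2 lower after median-ratio scaling. Without LPS+EtOH replicate 2 none was higher as deposited, and without LPS replicate 3 the count was 3. B2m, the light chain of class I, stood at 1913, 1928 and 1672 FPKM against 2437, 3210 and 2503 FPKM (0.56 ± 0.17), and Tap1, the peptide transporter, at 28.4, 36.4 and 20 FPKM against 37.3, 90.5 and 56.4 FPKM. Erap1, which trims peptides for class I, was lower on all 3 scales, at 10.6, 15.5 and 14 FPKM against 1.28, 1.7 and 1.42 FPKM.

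Further families fell without a member higher. All 8 tested Gimap genes, GTPases of immune cells that are best known in lymphocytes, were lower on all 3 scales (median -2.91 as deposited). Of these, 3 passed the filter only through LPS. Gimap6 stood at 81.6, 104 and 107 FPKM in LPS and at 6.05, 4.9 and 4.25 FPKM in LPS+EtOH (-4.02 ± 0.17). All 8 tested Ms4a genes, a family of membrane-spanning proteins, were lower too (median -3.96), 5 of them passing the filter only through LPS. Ms4a6d stood at 56.4, 29.3 and 30 FPKM against 0.468, 0.554 and 0.354 FPKM, and Ms4a4a at 61.9, 18.3 and 26.3 FPKM against 0.137, 0.041 and 0.0487 FPKM. Ms4a1 of this family is a B cell marker, and Ms4a4b is best known from T cells. The B cell and T cell marker sums fell alongside both families.

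Nuclear lists did not move as a block. RNA polymerase II and general transcription factors, with 5 of 30 higher and 25 lower as deposited, and splicing regulators of the SR and hnRNP kind, with 4 of 28 higher and 20 lower, became 11 higher and 7 lower, and 15 higher and 6 lower, after median-ratio scaling. Of 12 replication-independent and linker histone genes, 5 were higher and 5 lower as deposited, and 8 and 3 after median-ratio scaling. Remodelling, core splicing and repair genes were lower on balance on both scales. Of 28 chromatin remodelling genes, 23 were lower and 1 higher as deposited, and 20 and 6 after median-ratio scaling (median -1.55 and -0.60). Chd3, a helicase of the NuRD complex, stood at 14, 18.4 and 21.2 FPKM in LPS and at 1.13, 0.908 and 0.834 FPKM in LPS+EtOH (-3.25 ± 0.17). Its relative Chd2 stood at 28.6, 27.7 and 25 FPKM against 42.6, 41.2 and 36.4 FPKM, higher as deposited (0.55 ± 0.13) but with no call when globin genes were left out. Of 28 core spliceosome genes, 27 were lower and none higher as deposited, and 17 and 3 after median-ratio scaling. Prpf8, its central scaffold, fell from 44.8 to 7.11 FPKM. Of 27 DNA repair genes, 26 were lower as deposited and 19 after median-ratio scaling, with 16 passing the filter only through LPS. Parp1, which marks DNA breaks, stood at 16.7, 20.1 and 19.7 FPKM against 2.38, 1.59 and 1.71 FPKM.

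The proteasome and the respiratory chain depended on the scale. Of 37 proteasome subunits, 24 were lower and 3 higher as deposited, and 6 lower and 25 higher after median-ratio scaling. Psmc4, an ATPase of the cap, was lower on all 3 scales, from 25.5 to 6.24 FPKM, whereas Psma6, a core subunit, stood at 53, 59.6 and 57.6 FPKM in LPS and at 83.8, 75.3 and 83.7 FPKM in LPS+EtOH (0.50 ± 0.12), with no call when globin genes were left out (0.09, adjusted p = 0.501). All 13 genes encoded by the mitochondrial genome were lower as deposited (median -1.47), but 2 were after median-ratio scaling. Those 2 were mt-Atp6 and mt-Nd5, the latter at 480, 609 and 679 FPKM against 123, 199 and 149 FPKM. Nuclear-encoded cytochrome oxidase subunits leaned the other way after median-ratio scaling, with 7 of 10 higher and none lower, against 2 higher and 6 lower as deposited. Of 10 tested histone cluster genes, 8 were higher and none lower as deposited, and all 10 were higher after median-ratio scaling. Of these, 2 passed the filter only through LPS+EtOH. Hist1h2bc, an H2B gene, stood at 3.12, 2.11 and 2.34 FPKM against 6.55, 7.2 and 6.74 FPKM.

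Rising and falling genes differed in level and in gene structure. Among the 9241 protein-coding genes tested, the share called higher after median-ratio scaling climbed from 16.4% in the quintile with the lowest mean FPKM over the 6 libraries to 22.7, 32.3, 50.1 and 69.9% in those above it, and the share called lower went from 62.0 to 18.1%. The mean includes the LPS+EtOH libraries, so part of this gradient is built in. By the LPS mean alone, the shares higher were 32, 26.6, 31.6, 45.5 and 55.7% from the lowest to the highest quintile. The level filter bears on these shares too, as 2275 of the genes passed only through LPS and 123 only through LPS+EtOH. By exon number, the median after median-ratio scaling was 0.17 for genes with 1 exon and -0.42 for genes with 16 or more. By transcript length it was 0.05 in the shortest quintile and -0.28 in the longest. By GC content the quintiles ranged only from -0.18 to 0.00.

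Gene types differed as well. After median-ratio scaling the median was -0.10 for protein-coding genes, 1.31 for 208 antisense genes, 1.13 for 179 long intergenic noncoding RNAs and 1.86 for 21 noncoding RNAs from bidirectional promoters. It was 1.29 for 121 annotated microRNA entries, 1.24 for 28 sense intronic entries and 1.00 for 32 small nuclear RNA entries. As deposited the medians of these 6 noncoding types were 0.56, 0.25, 1.20, 0.47, 0.42 and 0.40, against -0.94 for protein-coding genes. Members that passed the filter only through LPS+EtOH had to be high there. They were 56 of the antisense genes, 36 of the intergenic RNAs, 8 of those from bidirectional promoters, 23 of the microRNA entries, 6 of the sense intronic and 3 of the small nuclear RNA entries, against 123 of the protein-coding genes. Members that passed only through LPS had to be low in LPS+EtOH. These were 2275 of the protein-coding genes and 31 of the 105 small nucleolar RNA entries. The 6 noncoding types above, in the same order, had 34, 36, 3, 17, 4 and 4 such members. The filter thus fixes part of the contrast between gene types. Small nucleolar RNAs did not share the higher medians of those 6 types, at -0.90 as deposited and -0.18 after median-ratio scaling. Of the antisense genes, 73.1% were higher and 15.4% lower after median-ratio scaling, against 38.3% and 42.8% of protein-coding genes.

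**Figure D4:**
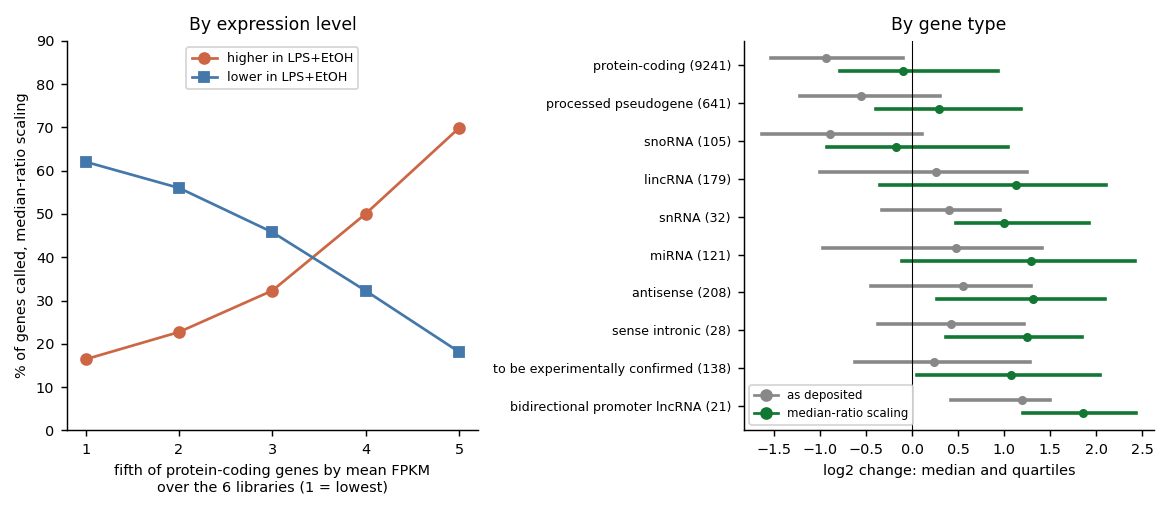
Left, share of 9241 protein-coding genes called higher (red circles) or lower (blue squares) in LPS+EtOH after median-ratio scaling, by quintile of mean FPKM over the 6 libraries. Right, median (point) and quartiles (line) of the log2 difference by gene type, as deposited (grey) and after median-ratio scaling (green), with the number of genes in parentheses; antisense, intergenic and microRNA entries lie to the right of protein-coding genes on both scales.

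Most small or intronic entries lie inside longer genes, so their reads may be reads of those genes. Of the 121 microRNA entries, 87 lie inside a longer tested gene, and their median after median-ratio scaling was 1.34 against 0.80 for the containing genes. Of the 59 such entries that were higher, 45 lay in a gene that was higher and 6 in a gene that was lower. Over all 87 such entries, 53 lay in a gene that was higher and 19 in a gene that was lower. Gm22133, annotated as a microRNA inside Ftl1, had the largest value of these, at 3415, 3140 and 2757 FPKM in LPS and 23383, 25843 and 27541 FPKM in LPS+EtOH. It took 6.94 to 7.79% of all FPKM in LPS+EtOH against 0.759 to 1.09% in LPS, and it cannot be told from ferritin light chain reads counted over a short feature. The same holds for Mir7034 in Tmem120a, which went from a mean of 0.392 to 18.2 FPKM while Tmem120a went from 9.7 to 97.3 FPKM, and for Mir6953 in Grina, from 3.4 to 45.8 FPKM with Grina from 162 to 645 FPKM. TruSeq libraries of this kind are not made to capture mature microRNAs, and no statement about mature microRNAs is made here.

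Gm22107 differed in direction from its containing gene as deposited. Gm22107, annotated as a small nuclear RNA inside the myosin gene Myh9, stood at 1.16, 1.38 and 0.954 FPKM in LPS and at 49.9, 39.6 and 47.4 FPKM in LPS+EtOH, while Myh9 went from a mean of 81.0 to 57 FPKM. After median-ratio scaling Gm22107 and Myh9 were both higher, by 5.35 and 0.67. Rn7sk, which has no containing gene in the comparison above and is the RNA that holds the elongation factor P-TEFb inactive, stood at 5.82, 3.68 and 6.09 FPKM against 52.6, 66.2 and 50.7 FPKM (3.23 ± 0.20). Gm22107 and Rn7sk were named after their values were seen. Of the 208 antisense genes, 181 overlap a tested gene on the other strand, with a median of 1.32 against 1.04 for those partners. Of 135 that were higher, 111 had a partner that was higher and 9 had a partner that was lower. Over all 181, the partner was higher for 121 and lower for 38. Gm20406, antisense to Klhdc4, stood at 1.7, 1.77 and 0.408 FPKM against 41.9, 52.7 and 43.5 FPKM, and Klhdc4 rose from 11.6 to 56.5 FPKM. The libraries kept the strand, per the labels, but whether counting used it is not given in the sources used here, so reads of such a pair may be shared.

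**Figure D5:**
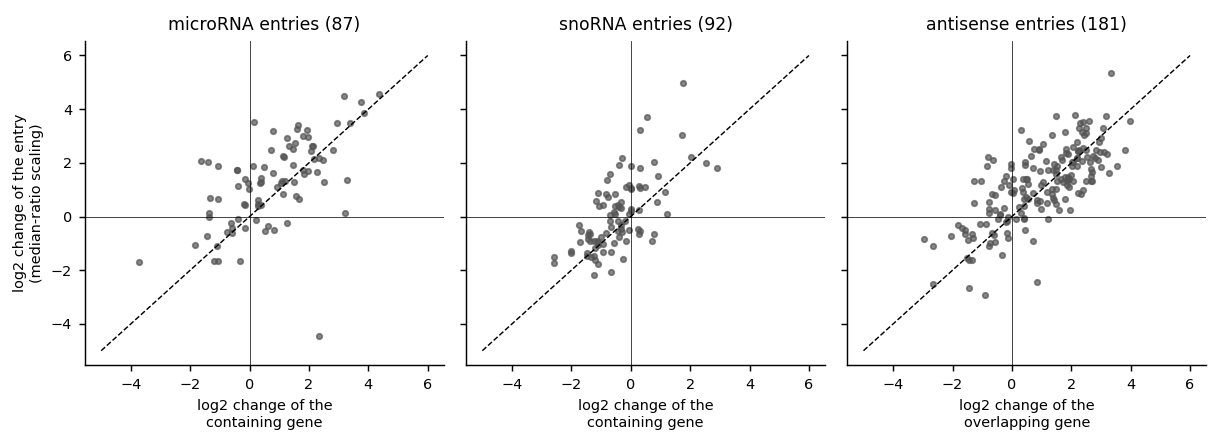
Log2 difference after median-ratio scaling of 87 microRNA entries and 92 small nucleolar RNA entries against the gene that contains them, and of 181 antisense entries against the overlapping gene on the other strand; each point is 1 entry and the dashed line marks equal differences. Most points lie in the quadrants where entry and partner share a sign.

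Promoter letters were compared across all genes with a window, 9536 windows of 7522 tested genes. The AP-1 letters TGACTCA, on either strand, were in 5.42% of the windows of genes higher on all 3 scales, 2.65% of those lower on all 3 and 3.16% of all. The NRF2 element TGACNNNGC was in 12.8, 10.8 and 11.8%, and in 5 of 24 windows of the NRF2 target list (20.8%). In the other lists searched its share ranged from 6.45% (ribosome biogenesis) to 21.4% (6 of 28 windows of the lysosomal list). The cyclic AMP element TGACGTCA was in 2.24, 2.55 and 2.68%, a loose NF-kB motif in 60.5, 60.2 and 61.5%, and the lysosomal E-box GTCACGTG in 3.1, 2.88 and 3.59%. The ATF4-type letters TGATGNAA were in 2.41, 2.32 and 2.04%. A heat shock element was in 4 of 23 windows of the heat shock list (17.4%) and in 0.398% of all. A match describes letters in a window and says nothing of binding.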

How the data were processed

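Gene expression was measured by strand-specific TruSeq RNA-seq in the 6 LPS and LPS+EtOH libraries, per the labels. The deposited values are FPKM per gene, made by the authors with STAR and StringTie after FastQC 0.11.2, per the submitters' processing notes, which give no other versions. These notes list hg38, a human build, for mouse gene IDs, and no coordinates were taken from the table. GENCODE M21 held 55154 of the 55335 IDs. FPKM carries no read counts, and a listed 0 may reflect an estimate that failed.

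Genes that reached 1 FPKM in 3 or more of the 6 libraries were tested on log2(FPKM + 1). The two-sided test was limma 3.58.1 (R 4.3.3), fitted by lmFit and eBayes with a mean trend. All 9 libraries of the series, the LPS+CPZ group included, share the spread (6 residual degrees of freedom), and p-values were adjusted by Benjamini-Hochberg over all tested genes, with a threshold of 0.05. Gene lists are described by counts from this fit, with no set test. The members and lists were chosen with earlier results of these data known.

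Named genes are the 15 largest rises and falls, the 8 largest gains and losses in mean FPKM, up to 3 members of a list plus 1 of the other direction, and the 4 most abundant that changed sign between scales. The rises, falls, gains and losses had to pass on all 3 scales without overlap, with the higher group averaging 5 FPKM or more, outside predicted genes, pseudogenes, shared symbols, immune receptor segments and lists of other cell types. A gene among the largest falls is not reported here. Other genes named were chosen after their values were seen. Deviations of same-numbered replicates correlated at -0.03, 0.18 and 0.03, and those of differently numbered ones at -0.19 to 0.13. With 3 libraries per group, this cannot settle whether replicate numbers pair the samples, and the main fit used no pairing. Promoter windows are the 250 bases before RefSeq starts. Tables and plots were made in Python 3.11.15 with pandas 2.3.3, numpy 2.4.6 and matplotlib 3.10.9.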

Additional observations from a re-analysis of the deposited data

How the results depend on the processing

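The count of higher genes, 2135, was 1393 with a mean filter of 5 FPKM, 3240 with no filter, 1169 at a log2 change of at least 1, 3788 with quantile and 4514 with median-ratio scaling. The count of lower genes, 7355, was 2861 with the mean filter and 4562 with median-ratio scaling. Leaving out 1 library at a time gave 2009 to 2132 higher and 7161 to 7291 lower as deposited. With median-ratio scaling it gave 4325 (without LPS replicate 3), 4329 (LPS 2), 4386 (LPS 1), 4388 (LPS+EtOH 3), 4399 (LPS+EtOH 1) and 4435 (LPS+EtOH 2) higher, and 4337, 4344, 4429, 4381, 4393 and 4467 lower in that order. With the replicate number as a block, 2167 were higher and 7384 lower, or 4536 and 4561 with median-ratio scaling. Single genes were followed in a set of 189, some of which, such as Adss, Egln1 and Lyz2, are not named above. In this set the block ended the call of H2-D1 (adjusted p = 0.0517 in limma). Whether the numbers pair the samples is not known. TPM, eBayes without trend or with robust fitting, pseudocounts of 0.1 and 5 FPKM, the 6 libraries alone and protein-coding genes alone left both counts within 1.5 times. The median of all genes, -0.87, was -1.18 with TPM, -1.19 with globin genes left out, -0.56 with the mean filter, -0.036 with no filter, -1.19 and -0.39 with pseudocounts of 0.1 and 5, -0.16 with quantile and -0.018 with median-ratio scaling. Direction reversed for Plek (0.85), Ifitm3 (0.53), Tpt1 (0.87) and Serinc3 (0.47) with median-ratio scaling, for B2m (-0.052) with quantile scaling and for H2-D1 (-0.068) with globin genes left out. The cause was not tested. Over these settings with 1 choice changed at a time, 172 of the 189 genes followed kept direction and call in each. Part of this stability is built in. The rises, falls, gains and losses were chosen to pass on all 3 scales, and list members for a small adjusted p. With no read counts, the depth behind genes near 1 FPKM is unknown.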

Other observations

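Some genes known as targets of ATF4 fell and others did not. No list of targets was set up, and those named here were chosen after their values were seen. Asns, asparagine synthetase, stood at 37.3, 36 and 34 FPKM in LPS and at 1.87, 1.42 and 1.7 FPKM in LPS+EtOH (-3.79 ± 0.13, adjusted p = 1.59e-08 in limma). Trib3, a pseudokinase, stood at 45.7, 56 and 44 FPKM against 1.53, 0.696 and 0.968 FPKM, and Chac1, which degrades glutathione, at 21, 28.3 and 20.5 FPKM against 2.33, 2.68 and 1.99 FPKM. For Asns, Trib3 and Chac1, every LPS library lay above every LPS+EtOH library. Atf4 stood at 138, 203 and 169 FPKM against 135, 146 and 156 FPKM, with a difference of -0.21 ± 0.17 (adjusted p = 0.263 in limma) as deposited and 1.00 (adjusted p = 0.000204) after median-ratio scaling. Ddit3, which encodes the stress factor CHOP, stood at 42.9, 53.7 and 48.9 FPKM against 51.4, 55.1 and 55.7 FPKM, with no call as deposited (0.16, adjusted p = 0.256). Slc7a11, the cystine importer, had no call as deposited either, at 345, 297 and 240 FPKM against 362, 333 and 345 FPKM (0.25, adjusted p = 0.147 in limma). After median-ratio scaling Slc7a11 was called higher, with a difference of 1.46, so its call depends on the scale. Ddit4 was higher, as given above. FPKM measures RNA, and the amount or activity of ATF4 protein was not measured.

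Some lists tied to ethanol or to protein stress lay near the background of all genes. Of 11 tested genes that metabolise ethanol and acetaldehyde, 1 was higher and 9 lower as deposited, and 4 and 6 after median-ratio scaling (median -1.16 and -0.30). Aldh2, the main acetaldehyde dehydrogenase, stood at 17.7, 17.6 and 21.2 FPKM in LPS and at 11.9, 14.2 and 15.3 FPKM in LPS+EtOH, a difference of -0.42 as deposited and 0.72 after median-ratio scaling. The member that was higher was Aldh3b1, at 6.52, 5.71 and 7.43 FPKM against 22.4, 18.2 and 29 FPKM (1.66 ± 0.18). Of 28 genes of endoplasmic reticulum chaperones and the unfolded protein response, 3 were higher and 21 lower as deposited, and 8 and 10 after median-ratio scaling (median -1.21 and -0.05). Hspa5, the chaperone BiP, stood at 208, 207 and 184 FPKM against 178, 189 and 187 FPKM, with no call as deposited (-0.11, adjusted p = 0.45 in limma).

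Selenoprotein and thioredoxin genes split widely, with 10 of 20 higher and 9 lower as deposited. Msrb1, a methionine sulfoxide reductase, stood at 110, 101 and 72.8 FPKM in LPS and at 562, 544 and 628 FPKM in LPS+EtOH, and Txn1, thioredoxin, rose from a mean of 185 to 664 FPKM. Selenow, a small selenoprotein, stood at 58, 79.8 and 79.2 FPKM against 8.78, 8.62 and 5.23 FPKM. Among C-type lectins, Clec4d, a receptor for mycobacterial glycolipid, rose from 577 to 1919 FPKM, and Clec7a, the beta-glucan receptor Dectin-1, from 55.5 to 191 FPKM. Neutrophils also carry both lectins, and the neutrophil marker sum rose alongside.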
